A study of Mus musculus with 12 samples.

Results

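The genes described here encode the proteins of the cytosolic ribosome. They were chosen by name: every symbol made of Rpl or Rps and a number, with an optional paralog suffix, and in addition *Rplp0*, *Rplp1*, *Rplp2* and *Rpsa*, while the Rps6k kinases were left out. This gave 84 of the 30705 genes in the table, 51 of the large subunit and 33 of the small subunit. The rule reads names alone. A total of 80 members, 48 large and 32 small, reached a mean of 1 RPKM over the 12 samples and were tested among 11282 genes. RPKM values are read numbers scaled to the length of the transcript and to the mapped reads of the library, and so are relative levels.

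A ribosome joins a small subunit, which decodes the mRNA, to a large subunit, which forms the peptide bond. Each subunit holds ribosomal RNA and a fixed set of proteins made in near-equal numbers, and the acidic proteins of the stalk recruit the translation factors. Mammalian ribosomal protein mRNAs begin with a terminal oligopyrimidine tract (TOP), a run of C and T in the gene, through which growth signals acting on mTOR and LARP1 set their translation and stability.

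RNA was sequenced from murine Braf V600E melanoma cells grown in culture without treatment, in 4 groups of 3 samples. All cells came from a C57BL/6 mouse that carried Braf+/LSL-V600E, a Cre under the tyrosinase promoter (Tyr::CreERT2+/o) and p16INK4a-/-, so the oncogenic *Braf* allele and the loss of p16INK4a were common to every group. The groups were scramble control cells and cells in which CRISPR/CAS9 was aimed at *ptgs1*, *ptgs2* or *ptges*, the genes that encode, in this order, COX-1, its inducible relative COX-2 and the synthase mPGES-1, the enzymes that lead from arachidonic acid to prostaglandin E2. The knockout lines were selected with puromycin and subcloned by limiting dilution from 1 parental line, and the samples of a group are described as subclones, so that p-values measure the spread between subclones and not between mice.

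The depth per sample was about 13.3 M to 17.2 M reads, as estimated from the steps of the values on the assumption that they are RPKM. The targeted genes bore out the labels: *Ptgs1* had a mean of 151 RPKM in scramble and 16.0 in *ptgs1*-KO cells, *Ptgs2* 761 and 79.8 in *ptgs2*-KO cells, and *Ptges* 77.6 and 37.1 in *ptges*-KO cells. In *ptgs1*-KO cells *Ptges* (54.5 RPKM) and *Ptgs2* (598 RPKM) were also called lower than in scramble cells. Of 11 melanocyte markers, 2 (*Mitf* and *Pax3*) reached a mean of 1 RPKM, and *Sox10*, *Dct*, *Tyrp1*, *Mlana* and *Kit* were listed at 0 in every sample. The pigment genes *Tyr* (0.29 to 1.29 RPKM) and *Pmel* (0.19 to 0.92 RPKM) were above 0 in every sample but low, so the labelled lineage was only faintly visible in its defining genes. Summed fibroblast markers were 17.51 to 23.99 RPKM in scramble, 23.97 to 35.4 in *ptgs1*-KO, 9.79 to 11.5 in *ptgs2*-KO and 9.65 to 13.1 RPKM in *ptges*-KO cells, with 2 of 9 (*Pdgfra* and *Pdgfrb*) at a mean of 1 RPKM or more and *Dcn* and *Lum* at 0. *Pdgfra* and *Pdgfrb* were both called lower in *ptgs2*-KO and in *ptges*-KO than in scramble cells. Of 10 immune markers only *Cd68* reached that mean, and it fell in *ptges*-KO cells (log2 difference from scramble −0.62), and of 6 endothelial markers 0 did. The part of other cell types in the results was not tested, and in bulk RNA a smaller number of cells of a type cannot be told apart from less RNA per cell.

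Several libraries stood apart in ways that touch these genes. *Ptgs2*-KO replicate 1 had the lowest value of all 12 libraries in 72 of the 80 members. *Ptges*-KO replicate 1 lay below the other samples of its group, most of all in the shortest members. *Ptgs1*-KO replicate 3 held 47672 RPKM of the ribosomal RNA entry *Rn45s*, against at most 17613 RPKM in any other library. Results that rest on these libraries are given below with and without them.

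The bases around the transcription start are shown because a TOP tract would begin there, for members on which the results turn and for paralog pairs whose ratios changed. Each line gives the 15 bases before and the 15 bases from the RefSeq gene start on GRCm38.p6, read 5′ to 3′ on the gene's strand, with the longest run of C and T in capitals.
Rpl4 (chr9:64173372-64173401, plus strand): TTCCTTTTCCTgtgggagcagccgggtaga
Rpl28 (chr7:4792950-4792979, plus strand): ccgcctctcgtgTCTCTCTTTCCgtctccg
Rplp2 (chr7:141447636-141447665, plus strand): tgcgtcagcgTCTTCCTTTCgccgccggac
Rps6 (chr4:86857353-86857382, minus strand): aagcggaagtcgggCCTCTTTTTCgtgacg
Rps3a (chr3:86142654-86142683, minus strand): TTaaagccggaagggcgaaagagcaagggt
Rps28 (chr17:33824548-33824577, minus strand): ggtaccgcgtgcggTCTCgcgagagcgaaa
Rpl34 (chr3:130730384-130730413, minus strand): cgCCTTCCCTgacgtacttcctgtccggcg
Rpl22 (chr4:152325711-152325740, plus strand): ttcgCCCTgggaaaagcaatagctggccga
Rpl22l1 (chr3:28805493-28805522, plus strand): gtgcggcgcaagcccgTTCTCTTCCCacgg
Rps27 (chr3:90213634-90213663, minus strand): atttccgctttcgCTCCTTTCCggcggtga
Rps27l (chr9:66946071-66946100, plus strand): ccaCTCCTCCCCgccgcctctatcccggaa

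In *Rpl28*, *Rplp2*, *Rps6* and *Rps27* the longest pyrimidine run crosses the annotated start, in *Rpl4*, *Rpl34* and *Rps27l* it ends before it, and the *Rps3a*, *Rps28* and *Rpl22* windows hold runs of 2 to 4 bases, which says only that no longer run lies in these 30 bases. Promoter windows from 250 bases before to 50 after the start were found for 63 of the 84 members. A run of at least 8 C or T within 30 bases of the start was present in 32 of the 63 (50.8%) and in 22.7% of 26962 other genes. The ETS core CCGGAAG, searched on both strands, was present in 25 of the 63 windows (39.7%) and in 9.05% of the others. The YY1 core AAGATGG, also on both strands, occurred in 14.3% of members and 6.46% of other genes, and TATAAA in 9.52% and 14.2%. The E-box CACGTG, the core that MYC binds, occurred in 7.94% of members and 7.24% of other genes, so that it was about as common in both.

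The members' median level over the 12 libraries was 984 RPKM, 946 for the large and 1099 for the small subunit, and 67 of the 80 reached a mean of 500 RPKM. The highest means were those of *Rps2*, a small subunit protein, at 3478 RPKM, and of the stalk proteins *Rplp0* and *Rplp1*, and the lowest those of *Rpl34* (39.5 RPKM) and of the paralog *Rpl7l1*. The paralogs *Rpl10l*, *Rpl39l*, *Rpl3l* and *Rps4y2* were listed at 0 in 11 of 12 libraries each and at 0.25 RPKM or less in the remaining one. Low values can reflect how reads were assigned: *Rpl34* stood at 45.9 ± 7.82 RPKM (SD, n = 3) in scramble cells while its processed copy *Rpl34-ps1* stood at 899 RPKM, and reads of near-identical copies cannot be told apart here. *Rps15a* stood at 62.4 RPKM. The GENCODE M21 transcript chosen for it here has 5179 bases, and the length to which its RPKM was scaled is not given. Levels of these genes beside other genes are therefore uncertain.

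Between libraries, the range of a member on the log2 scale had a median of 1.01. *Rpl24* was the steadiest member, with 1184, 1117 and 1055 RPKM in scramble and 971, 1110 and 1150 RPKM in *ptges*-KO samples and a range of 0.42, with *Rpl7l1* (0.52) and *Rps13* (0.61) also among the steadier ones. *Rpl30*, *Rpl36*, *Rps27* and *Rps27a*, the last made as a fusion with ubiquitin, ranged most widely, by 1.53 to 1.54. Steady and variable members were found in both subunits.

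Both subunits moved together from library to library. The joint level of a library was taken as the median over the 80 members of the log2 deviation of each gene from its own mean. It was 0.16, −0.07 and −0.08 in the scramble samples, −0.17, 0.10 and −0.14 in *ptgs1*-KO, −0.59, 0.06 and 0.02 in *ptgs2*-KO, and −0.09, 0.39 and 0.42 in *ptges*-KO samples. *Ptges*-KO replicates 2 and 3 were above every other library and *ptgs2*-KO replicate 1 below every other, and *ptges*-KO replicate 1 lay just below the scramble samples. The same median over all tested genes stayed between −0.09 and 0.08.

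The large and small subunit medians of the same library differed by −0.05 to 0.08 on the log2 scale, a small distance beside the range of the joint level. In *ptgs2*-KO replicate 1 the large subunit stood at −0.54 and the small subunit at −0.63. In *ptges*-KO replicate 2 they stood at 0.40 and 0.36, and in replicate 3 at 0.41 and 0.43. The difference large minus small was higher in all 3 *ptgs2*-KO samples (0.08, 0.04 and 0.04) than in the scramble samples (−0.05, −0.05 and −0.02), which was not tested.

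**Figure D1:**
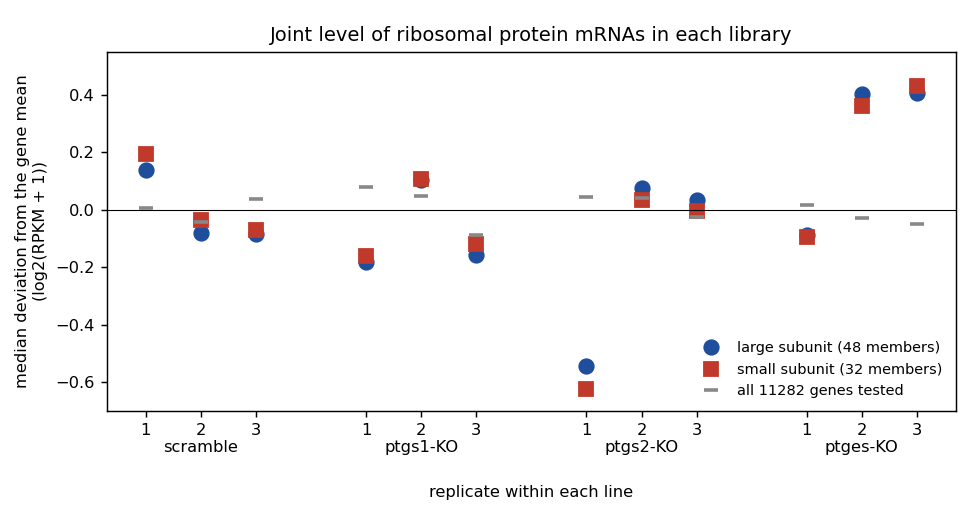
Joint level of the ribosomal protein genes in each of the 12 libraries (vertical axis: median log2 deviation of the members from their own means; horizontal axis: groups and replicates), for the 48 large (circles) and 32 small (squares) subunit members, with all tested genes as grey dashes. The symbols of both subunits lie close together in every library, highest in *ptges*-KO replicates 2 and 3 and lowest in *ptgs2*-KO replicate 1.

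In share of all RPKM, the members took 6.62% in *ptgs2*-KO replicate 1 and 12.6% in *ptges*-KO replicate 3, the lowest and highest of the libraries. The group means were 9.38% ± 0.803 in scramble, 8.87% ± 0.954 in *ptgs1*-KO, 8.66% ± 1.77 in *ptgs2*-KO and 11.3% ± 1.91 (SD, n = 3 each) in *ptges*-KO cells. *Ptges*-KO replicate 3 was the highest of 12 libraries for 54 members and replicate 2 for 17, and both together were the top pair for 66 of 80. Within groups, the median SD of a member was 0.27 on the log2 scale, against 0.14 for all tested genes, and 94.0% of the members' variance within groups lay on 1 component, against 27.2% for all genes. A shared movement of this kind makes the members' calls depend on one another, and counts of calls below are not counts of independent findings.

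The comparison of *ptges*-KO with scramble cells addressed what changes when the terminal enzyme of prostaglandin E2 synthesis is targeted. In the *ptges*-KO samples 19 of the 80 members were raised and 0 lowered (limma, Benjamini-Hochberg adjusted p under 0.05 over 11282 genes). Among all tested genes, 11.9% were called higher and 14.4% lower, so the members' share of 23.8% called higher was above the background and that of lower calls below it. At an unadjusted p under 0.05 there were 25 higher and 0 lower members, beside 17.3% and 20.96% of all genes. Tukey's test on single genes, at an adjusted p under 0.05, gave 7 higher and 0 lower. The share of all genes called by Tukey's test is not given here. The median log2 difference was 0.24 (1.18-fold), 0.24 in the large and 0.22 in the small subunit, and 70 of 80 members were above 0, while the median over all tested genes was −0.03. Without overlap between the groups, 19 members were higher, with 20.3% of all genes as background, and 0 were lower, with 23.0%. The called members were 12 of 48 in the large and 7 of 32 in the small subunit.

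Of the stalk proteins, *Rplp2* (chr7:141447370-141451585, plus strand, 345 coding bases) had 976, 898 and 869 RPKM in scramble, 937, 995 and 1023 in *ptgs1*-KO, 675, 900 and 922 in *ptgs2*-KO and 1161, 1210 and 1226 RPKM in *ptges*-KO samples. All 3 *ptges*-KO samples lay above the other 9. The log2 difference from scramble was 0.39 (SE 0.11, limma adjusted p = 0.0201). *Rplp0*, the protein that anchors the stalk, had 2565, 2354 and 2421 RPKM in scramble, 2521, 2725 and 2063 in *ptgs1*-KO, 1950, 2819 and 2666 in *ptgs2*-KO and 2953, 3420 and 3626 RPKM in *ptges*-KO samples. Again the *ptges*-KO samples did not overlap the others, with a log2 difference of 0.44 (SE 0.15, adjusted p = 0.0445). *Rplp1*, which pairs with *Rplp2*, had 2582, 2282 and 2083 RPKM in scramble and 1697, 2684 and 2853 RPKM in *ptges*-KO samples. These groups overlapped, with the first *ptges*-KO sample below all scramble samples, and the log2 difference was 0.03 (SE 0.22, adjusted p = 0.946).

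Among other large subunit members, *Rpl3* (chr15:80077791-80091868, minus strand), a core protein near the peptidyl transferase centre, had 1271, 1250 and 1226 RPKM in scramble, 1314, 1396 and 1310 in *ptgs1*-KO, 1168, 1424 and 1423 in *ptgs2*-KO and 1794, 1881 and 1851 RPKM in *ptges*-KO samples. The *ptges*-KO samples stood well apart, and the samples within each group were close except in *ptgs2*-KO. The mean was 1249 ± 22.5 RPKM in scramble against 1842 ± 44.1 RPKM with *ptges* targeted (SD, n = 3 each), and the log2 difference was 0.56 (SE 0.09, adjusted p = 0.000811). *Rpl4* (chr9:64173375-64178666, plus strand), which lines the exit tunnel, had 1725, 1600 and 1616 RPKM in scramble, 1628, 1797 and 1618 in *ptgs1*-KO, 1572, 2017 and 2008 in *ptgs2*-KO and 2198, 2532 and 2545 RPKM in *ptges*-KO samples. No *ptges*-KO value was within the range of another group, and the log2 difference from scramble was 0.56 (SE 0.11, adjusted p = 0.00325).

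*Rpl28* had 1895, 1700 and 1579 RPKM in scramble and 2315, 2689 and 2582 RPKM in *ptges*-KO samples (log2 difference 0.55, SE 0.11, adjusted p = 0.00289). *Rpl14* had 866, 879 and 803 RPKM in scramble and 1198, 1123 and 1131 in *ptges*-KO samples, the latter with replicate 1 highest. Its log2 difference was 0.44 (SE 0.08, adjusted p = 0.00155), so that it rose without the order of libraries that most members shared. *Rpl6* and *Rpl9* rose by 0.55 and 0.42 on the log2 scale. *Rpl5*, a partner of the 5S RNA that can bind MDM2, rose by 0.41 (adjusted p = 0.0181). *Rpl8*, *Rpl29* and *Rpl7l1* completed the large subunit calls.

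In the small subunit the largest rise was that of *Rps3a* (chr3:86137940-86142702, minus strand), a protein of the mRNA exit region. It had 1867, 1666 and 1571 RPKM in scramble, 1229, 1527 and 1443 in *ptgs1*-KO, 1669, 2296 and 2129 in *ptgs2*-KO and 2086, 2787 and 2878 RPKM in *ptges*-KO samples. Every *ptges*-KO sample was above and every *ptgs1*-KO sample below the scramble samples, while *ptgs2*-KO samples overlapped them. The log2 difference was 0.59 (SE 0.15, adjusted p = 0.0117) in *ptges*-KO, −0.28 (adjusted p = 0.285) in *ptgs1*-KO and 0.25 (adjusted p = 0.32) in *ptgs2*-KO cells, each against the same scramble samples. The *ptges*-KO call was lost without scramble replicate 3, *ptges*-KO replicate 2 or *ptges*-KO replicate 3, at 0.51 to 0.54.

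*Rps6*, the substrate of the S6 kinases downstream of mTOR (chr4:86854660-86857412, minus strand), had 930, 853 and 792 RPKM in scramble, 792, 908 and 828 in *ptgs1*-KO, 727, 971 and 959 in *ptgs2*-KO and 985, 1266 and 1298 RPKM in *ptges*-KO samples. The *ptges*-KO samples lay above all others, the first of them only by a little, and the log2 difference was 0.45 (SE 0.13, adjusted p = 0.0231). *Rpsa*, which is also known as the laminin receptor, had 1685, 1544 and 1510 RPKM in scramble and 1821, 2231 and 2299 RPKM in *ptges*-KO samples. These groups did not overlap either (log2 difference 0.42, SE 0.13, adjusted p = 0.0361). *Rps4x*, *Rps2* and *Rps26* rose by 0.52, 0.40 and 0.40 on the log2 scale, *Rps2* closest to the threshold (adjusted p = 0.0492).

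**Figure D2:**
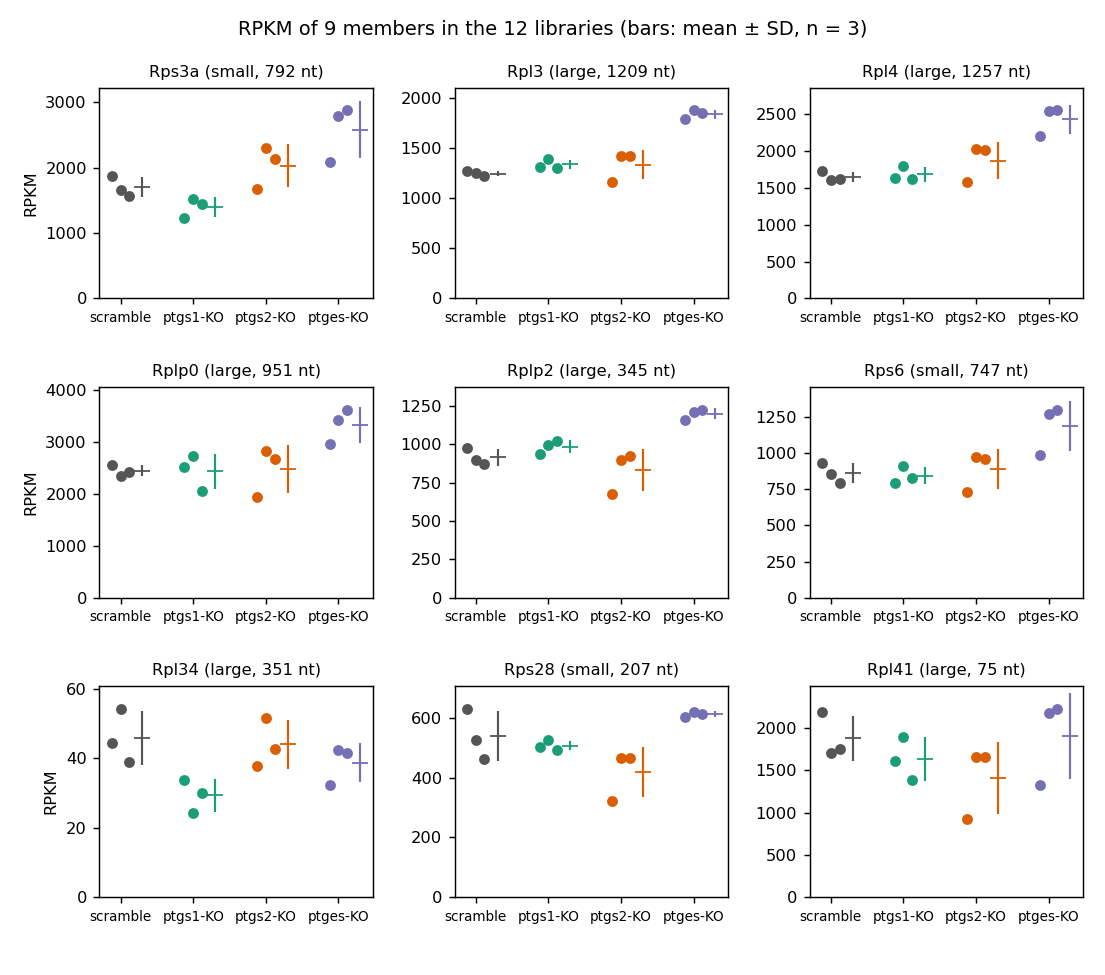
RPKM of members named in the text in each of the 12 libraries (vertical axis: RPKM; horizontal axis: groups), with points for samples and bars for the group mean ± SD (n = 3). *Rpl3*, *Rpl4* and *Rplp2* are higher in the 3 *ptges*-KO samples than in the other 9, whereas *Rpl34* has its lowest group mean in *ptgs1*-KO cells.

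The number of calls rested on single libraries. Leaving out 1 library at a time gave 7 to 26 higher members: 7 without scramble replicate 3, 9 without scramble replicate 2, 8 without *ptges*-KO replicate 2 or 3, and 26 without *ptges*-KO replicate 1. The share of all genes called at each omission is not given here, so these changes need not be particular to the members. A core of 7 members, *Rpl14*, *Rpl28*, *Rpl3*, *Rpl4*, *Rpl6*, *Rpl9* and *Rps4x*, were called whichever library was left out. The median difference ran from 0.14 to 0.42 over the same omissions. With both low libraries left out, *ptgs2*-KO replicate 1 and *ptges*-KO replicate 1, an alternative chosen after the data were seen, 54 members were higher and 0 lower, against 10.8% of all genes called higher.

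The called members had long coding sequences. Their median coding length was 771 bases, against 429 for the other 61 tested members. Of members with fewer than 400 coding bases 2 of 28 were called higher, of those from 400 to 600 bases 3 of 29, and of longer ones 14 of 23. The median log2 differences of these classes were 0.13, 0.23 and 0.40, and in *ptgs2*-KO against scramble cells they were −0.31, −0.17 and 0.04. In both knockouts the short members thus stood below the long ones. *Rpl41*, the shortest member at 75 coding bases, had 2189, 1706 and 1751 RPKM in scramble and 1324, 2184 and 2230 RPKM in *ptges*-KO samples. The first *ptges*-KO sample was below all scramble samples, the second among them and the last just above, and the log2 difference was −0.01 (SE 0.24).

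The gradient with length differed in size and direction between libraries. In *ptges*-KO replicate 1 the median deviation was −0.27 for the short and 0.09 for the long members, whereas it was 0.39 and 0.38 in replicate 2 and 0.40 and 0.42 in replicate 3. In *ptgs2*-KO replicate 1 it was −0.71 for the short and −0.38 for the long members. In all scramble samples it ran the other way, with 0.27 and −0.01 in replicate 1, −0.01 and −0.12 in replicate 2 and −0.04 and −0.15 in replicate 3. So the short members were low in both low libraries beyond what the long members were. Other genes with short coding sequences, 533 in number, moved in the same direction but less, with −0.25 in *ptgs2*-KO replicate 1 and −0.13 in *ptges*-KO replicate 1. Across the members, Spearman's rho between deviation and coding length ran from −0.79 to 0.63 over the 12 libraries, as a description of points that share a library. It was −0.79, −0.57 and −0.50 in scramble and 0.11, −0.50 and −0.33 in *ptgs1*-KO samples. In *ptgs2*-KO samples it was 0.63, 0.17 and 0.26, and in *ptges*-KO samples 0.57, 0.03 and 0.01. The cause of the gradient was not tested.

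**Figure D3:**
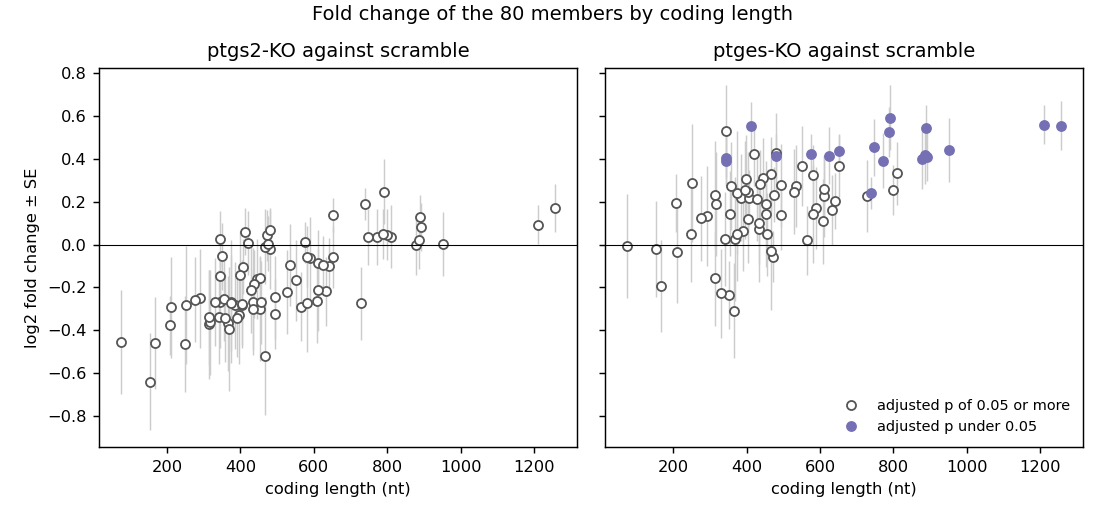
Log2 difference of each tested member from scramble cells, with its SE (vertical axis), against coding length in bases (horizontal axis), in *ptgs2*-KO cells (left panel) and *ptges*-KO cells (right panel), with called members filled. In *ptges*-KO cells most called members lie above 600 coding bases, where 14 of 23 were called, against 2 of 28 below 400.

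**Figure D4:**
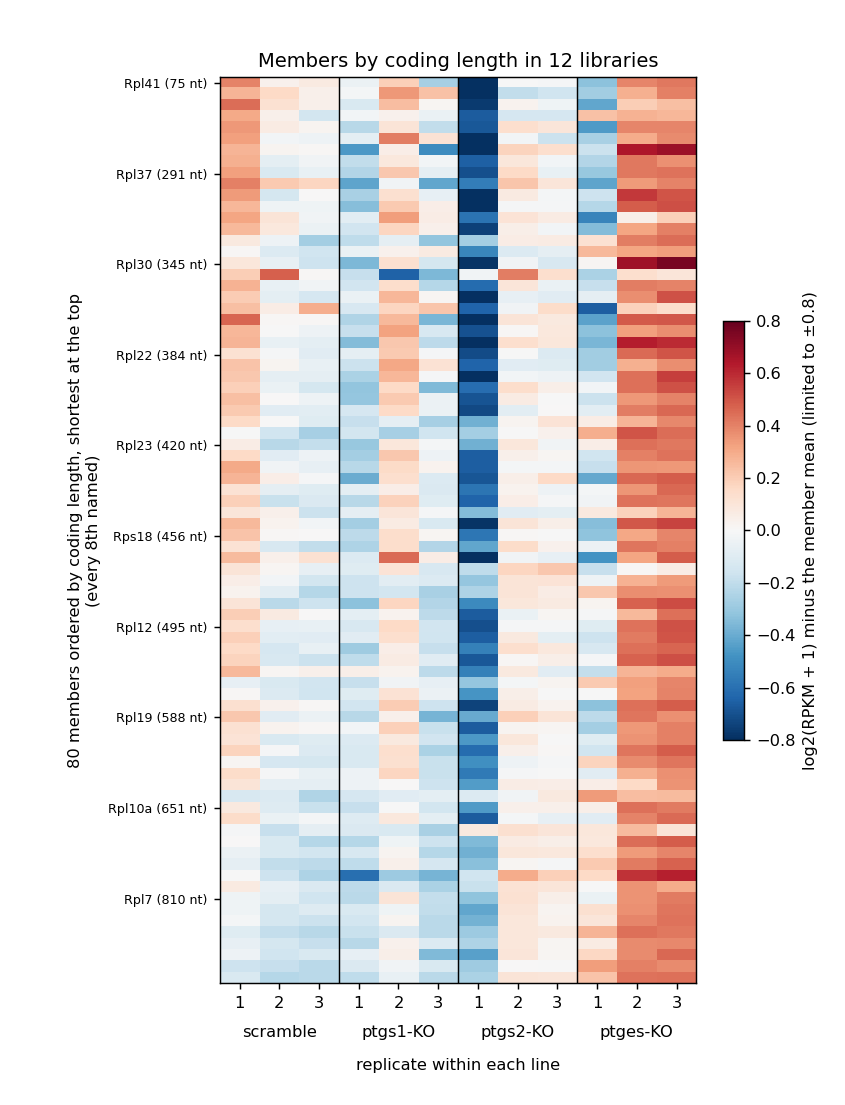
Deviation of each tested member from its own mean (colour, log2 scale, limited to 0.8 in both directions) in the 12 libraries (columns), with the members ordered by coding length (vertical axis). *Ptgs2*-KO replicate 1 and *ptges*-KO replicate 1 are lowest among the short members, and *ptges*-KO replicates 2 and 3 are high at all lengths.

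A smooth trend of each library with transcript length and GC content, over the tested genes with a known transcript, was taken out. This length was that of the whole transcript and not the coding length used above. In *ptges*-KO cells 45 members were then higher, 20 of the long, 17 of the middle and 8 of the short class, against 19.0% of all genes. The joint level was then −0.05, −0.08 and −0.14 in scramble and 0.07, 0.27 and 0.26 in *ptges*-KO samples, and these no longer overlapped. When instead each library was centred on the median of the members, 0 members were higher, and 1 was lower in *ptges*-KO cells. This was *Rpl35a*, which had 844, 730 and 665 RPKM in scramble and 469, 702 and 774 RPKM in *ptges*-KO samples. Its groups overlapped in RPKM, and its log2 difference relative to the members was −0.48 (SE 0.14, limma adjusted p = 0.0397), with −0.23 (adjusted p = 0.456) without the centring. Scaling by the members themselves shows only unequal change among them.

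Against *ptgs2*-KO cells, a comparison that sets the terminal synthase beside the cyclooxygenase upstream of it, 14 members stood higher and 0 lower in the *ptges*-KO group, 9 of the large and 5 of the small subunit. Of all tested genes 6.76% were called higher and 9.84% lower, so that the 14 of 80 lay above the background. At an unadjusted p under 0.05 there were 47 higher and 0 lower members in limma's fit, beside 12.3% and 18.3% of all genes. By Tukey's test, at an adjusted p under 0.05, there were 4 and 0, without a share of all genes given here. The median log2 difference was 0.40 (1.32-fold) and 78 of 80 were above 0. Groups without overlap were found in 20 members, all higher, against 14.9% of all genes. The count was 6 without *ptgs2*-KO replicate 1, 5 and 4 without *ptges*-KO replicates 2 and 3, and 60 without *ptges*-KO replicate 1. The share of all genes at these omissions is not given here. With both low libraries left out the count was 31, against 4.80% of all genes. Same-numbered samples of these groups deviated together, and within each number the joint level of *ptges*-KO exceeded that of *ptgs2*-KO, by 0.50, 0.33 and 0.40. With the replicate number as a block and the samples of these 2 groups alone, an alternative chosen after the data were seen, 74 members were higher and 0 lower, against 13.9% of all genes called higher, and all 14 were among the 74. The numbers were taken as pairs from these same data, so the 74 calls add no independent support. The median difference ran from 0.22 to 0.56 over the single omissions.

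The comparison shares its *ptges*-KO samples with the one above, so its values stand beside those and add no independent support. *Rpl3* differed by 0.47 (adjusted p = 0.00385), *Rplp2* by 0.54 (SE 0.11, adjusted p = 0.0051), *Rpl4* by 0.38 (adjusted p = 0.0339) and *Rps4x* by 0.48 on the log2 scale. *Rpl30*, *Rps13* and *Rps28* were called here and not against scramble cells, a difference between the comparisons that was not tested. *Rpl30* (chr15:34440505-34443640, minus strand), which also binds its own transcript, had 1112, 999 and 934 RPKM in scramble, 816, 1141 and 949 in *ptgs1*-KO, 607, 1025 and 956 in *ptgs2*-KO and 1057, 1673 and 1767 RPKM in *ptges*-KO samples. Its *ptges*-KO samples were above all *ptgs2*-KO samples but overlapped the scramble range. The log2 difference was 0.80 (SE 0.22, adjusted p = 0.0225) against *ptgs2*-KO and 0.53 (SE 0.22, adjusted p = 0.0879) against scramble cells. Against *ptgs2*-KO cells it was 0.56 without *ptgs2*-KO replicate 1, 0.70 without *ptges*-KO replicate 2 and 0.66 without replicate 3, none of which was called. *Rps28* (chr17:33819027-33824562, minus strand) had 630, 527 and 462 RPKM in scramble, 503, 524 and 494 in *ptgs1*-KO, 322, 466 and 467 in *ptgs2*-KO and 602, 621 and 614 RPKM in *ptges*-KO samples. Its first *ptgs2*-KO sample was the lowest of all, and the log2 difference was 0.57 (SE 0.14, adjusted p = 0.0126).

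In *ptgs2*-KO against scramble cells, 0 members were called higher and 0 lower by limma, where 5.97% and 5.17% of all genes were. The counts at an unadjusted p under 0.05 were 1 and 2, beside 14.6% and 12.3% of all genes. Tukey's test, at an adjusted p under 0.05, gave 0 and 0. The median log2 difference was −0.21, −0.15 in the large and −0.27 in the small subunit, with 59 of 80 members below 0. Without *ptgs2*-KO replicate 1 the median was 0.01, so the sign and size of the shift rested on that library. With length and GC trends removed, 5 of the 23 long, 5 of the 29 middle and 1 of the 28 short members were called higher, and 1 member lower. The share of all genes at that setting is not given here. Groups without overlap were found for 1 higher member, against 19.4% of all genes, and for 5 lower ones, against 15.8%. *Rpl39*, a small protein of the exit tunnel, had 649, 600 and 553 RPKM in scramble and 251, 469 and 482 RPKM in *ptgs2*-KO samples. The groups did not overlap, and the log2 difference was −0.64 (adjusted p = 0.0875).

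In *ptgs1*-KO against scramble cells, 0 members were higher and 1 lower, where 4.65% and 4.61% of all genes were called. In limma's fit, 0 higher and 2 lower members had an unadjusted p under 0.05, beside 12.2% and 11.4% of all genes. Tukey's test, at an adjusted p under 0.05, called 0 in either direction. The median log2 difference was −0.06 and 64 of 80 members were below 0, and the median ran from −0.14 to 0.02 over the single omissions, across 0. Groups did not overlap in 1 higher and 3 lower members, against 13.7% and 13.2% of all genes, so fewer members than genes at large were set apart. The lower member was *Rpl34* (chr3:130726831-130730398, minus strand), with 44.4, 54.3 and 38.9 RPKM in scramble, 33.9, 24.3 and 29.9 in *ptgs1*-KO, 38.0, 51.7 and 42.6 in *ptgs2*-KO and 32.3, 42.6 and 41.5 RPKM in *ptges*-KO samples. The *ptgs1*-KO samples lay below the scramble samples, and the log2 difference was −0.63 (SE 0.16, adjusted p = 0.0241). It was not called without *ptgs1*-KO replicate 2 or 3 or scramble replicate 1 or 2, with differences of −0.73 to −0.50 over all omissions. With length and GC trends removed it was not called either (−0.45, adjusted p = 0.0668), while *Rps27l* was then called lower (−0.35, adjusted p = 0.0122). Its copy *Rpl34-ps1* had a log2 difference of −0.46 (adjusted p = 0.318).

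Over all 4 groups, 19 members differed by limma's F test, 12 large and 7 small, where 38.6% of all tested genes did. A share of 19 in 80 lay below that background. The count was unstable: it was 10 without *ptges*-KO replicate 3, 12 without *ptges*-KO replicate 2 and 40 without *ptges*-KO replicate 1. It was 49 with length and GC trends removed and 60 without both low libraries. The share of all genes at each of these settings is not given here, so these counts cannot be set against it. The spread of the groups on the joint level, 0.00 ± 0.13 in scramble, −0.07 ± 0.15 in *ptgs1*-KO, −0.17 ± 0.36 in *ptgs2*-KO and 0.24 ± 0.29 (SD, n = 3) in *ptges*-KO cells, was large within both of the last groups.

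The tested paralogs can be set against their parent genes within a library. *Rpl22l1*, a paralog that can take the place of *Rpl22* in the ribosome, stood at 1.51, 1.46 and 1.82 times *Rpl22* in scramble samples. The ratio was 1.45 ± 0.169 in *ptgs1*-KO, 1.51 ± 0.150 in *ptgs2*-KO and 1.10 ± 0.0463 (SD, n = 3) in *ptges*-KO cells. In *ptges*-KO cells it was thus 69.0% of the scramble mean of 1.60, and every *ptges*-KO sample, at 1.07 to 1.16, was below every scramble sample. *Rpl22* itself had 117, 107 and 101 RPKM in scramble and 88.4, 147 and 153 RPKM in *ptges*-KO samples, and *Rpl22l1* 177, 156 and 183 and 94.5, 170 and 165 RPKM. Neither differed alone (limma adjusted p = 0.470 and 0.341).

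*Rps27l*, a paralog of *Rps27* known as a p53 target, stood at 0.246 ± 0.00450 of *Rps27* in scramble, 0.222 ± 0.0132 in *ptgs1*-KO, 0.238 ± 0.0301 in *ptgs2*-KO and 0.181 ± 0.00343 (SD, n = 3) in *ptges*-KO cells, 73.4% of scramble in the last. The ratio of *Rpl7l1* to *Rpl7* was 0.0478 ± 0.00326 in scramble and 0.0453 in *ptges*-KO cells. It was highest in *ptgs2*-KO replicate 1 (0.0632) and lowest in *ptges*-KO replicate 3 (0.0385), the libraries with the lowest and highest joint level. Between these the order was not simply the inverse of that level, with 0.0409 in *ptgs1*-KO replicate 2 and 0.0444 in *ptges*-KO replicate 2. Over the 12 libraries *Rpl7* ranged by 0.74 and *Rpl7l1* by 0.52 on the log2 scale. An exact permutation test over the 4 groups had 15400 divisions and a smallest possible p of 6.5e-05. Its p was 0.0114 for *Rpl22l1*, 0.00584 for *Rps27l* and 0.424 for *Rpl7l1*. Adjusted over the 3 ratios, p was 0.0170 for *Rpl22l1* and for *Rps27l*. With *ptges*-KO replicate 1 left out the adjusted p for *Rpl22l1* was 0.0509. Between *ptges*-KO and scramble alone, the smallest p that an exact test of 3 against 3 allows is 0.1, which the *Rpl22l1* and *Rps27l* ratios reached. The *Rps27l* ratio reached 0.1 between *ptgs1*-KO and scramble too. Its *ptgs1*-KO samples, at 0.208 to 0.234, all lay below the scramble samples, at 0.242 to 0.251. Reads shared between a paralog and its parent would enter both sides of a ratio.

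**Figure D5:**
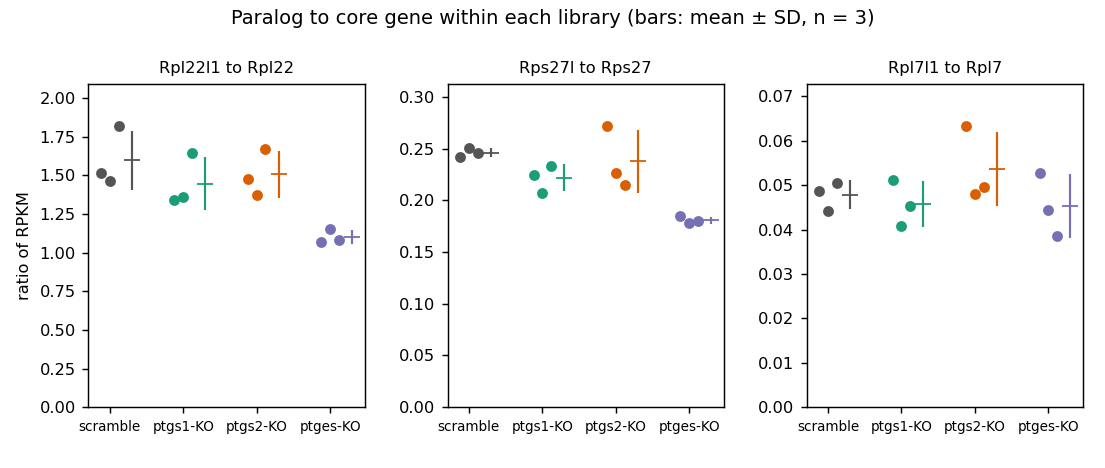
Ratio of the RPKM of a paralog to that of its parent gene (vertical axis) in each library, for *Rpl22l1* to *Rpl22*, *Rps27l* to *Rps27* and *Rpl7l1* to *Rpl7* in the 4 groups (horizontal axis), with the mean ± SD (n = 3) beside the samples. The *Rpl22l1* and *Rps27l* ratios are lowest in *ptges*-KO samples, at means of 1.10 and 0.181.

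Some proteins of the ribosome have names that the rule did not take. *Fau*, *Gnb2l1* (the scaffold RACK1) and *Rpl36al* had log2 differences between *ptges*-KO and scramble cells of 0.15, 0.31 and −0.01 and were not called, *Gnb2l1* coming closest of them at an adjusted p of 0.10. *Gnb2l1* had 1531, 1506 and 1453 RPKM in scramble and 1664, 1886 and 2024 RPKM in *ptges*-KO samples, without overlap. It was called against *ptgs2*-KO cells (log2 difference 0.42, adjusted p = 0.0418).

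Of other translation genes with TOP mRNAs, chiefly elongation factors, 13 of 18 passed the test upward and 0 downward in *ptges*-KO against scramble samples. Of all tested genes 11.9% and 14.4% did. The list's median log2 difference was 0.35. *Eef1a1*, which brings aminoacyl-tRNA to the ribosome, had 11661, 12057 and 12152 RPKM in scramble, 14454, 13799 and 11976 in *ptgs1*-KO, 12598, 14398 and 13941 in *ptgs2*-KO and 20381, 18847 and 17910 RPKM in *ptges*-KO samples. The *ptges*-KO samples did not overlap the rest, and replicate 1, low in most ribosomal protein genes, was the highest of them (log2 difference 0.67, adjusted p = 0.00425). *Nap1l1*, a histone chaperone with a TOP mRNA, had 292, 283 and 295 RPKM in scramble and 539, 501 and 511 RPKM in *ptges*-KO samples, which lay far above (log2 difference 0.83, adjusted p = 2.23e-05). The joint level of this list was −0.17 to −0.14 in scramble and 0.23 to 0.27 in *ptges*-KO samples, so the 3 *ptges*-KO libraries were closer to one another here than on the ribosomal protein genes.

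*Eif5*, the GTPase-activating protein of initiation, rose by 0.54 on the log2 scale. Initiation factors were higher in 11 and lower in 1 of 31, beside the same 11.9% and 14.4% of all genes, the lower one being *Eif4a2*, a helicase of the cap-binding complex, with 152, 133 and 151 RPKM in scramble and 63.5, 80.5 and 88.2 RPKM in *ptges*-KO samples (log2 difference −0.91, adjusted p = 0.000126). Ribosome biogenesis factors were higher in 17 and lower in 4 of 50 in *ptges*-KO and higher in 20 and lower in 0 of 50 in *ptgs2*-KO cells, where 5.97% and 5.17% of all genes were. *Ncl*, nucleolin, had 180, 194 and 198 RPKM in scramble, 266, 241 and 265 in *ptgs2*-KO and 307, 304 and 264 RPKM in *ptges*-KO samples. Both knockouts lay above scramble, with log2 differences of 0.43 and 0.61. In *ptgs2*-KO cells, then, the main fit called biogenesis factors and no ribosomal protein genes, although the difference between the lists was not tested. With length and GC trends removed, 11 ribosomal protein genes were higher and 1 lower in these cells. Of the biogenesis factors 29 were then higher and 1 lower. The share of all genes at that setting is not given here. RNA polymerase I and III genes were higher in 4 and lower in 2 of 24 in *ptges*-KO cells, beside 11.9% and 14.4% of all genes. A list of chaperones and importers of ribosomal proteins that also held *Trp53* was higher in 2 and lower in 0 of 8, beside the same shares. The 2 were the importin *Ipo5* and *Trp53*, the gene for p53, which is neither a chaperone nor an importer but responds to faults in ribosome assembly.

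Among 28 regulators of ribosome production, 5 passed the test upward and 6 downward with *ptges* targeted, beside 11.9% and 14.4% of all genes, so that no direction stood out. *Myc*, a transcription factor that drives ribosome biogenesis, had 79.9, 78.4 and 83.9 RPKM in scramble, 107, 94.1 and 92.6 in *ptgs1*-KO, 94.5, 79.6 and 84.7 in *ptgs2*-KO and 131, 113 and 107 RPKM in *ptges*-KO samples. The *ptges*-KO samples were above all scramble and *ptgs2*-KO samples, and the lowest of them was level with the highest *ptgs1*-KO sample (log2 difference 0.53, adjusted p = 0.00123). *Tsc1*, a brake on mTOR, and *Rps6ka2*, a kinase of the RSK family, fell by 0.59 and 0.60 on the log2 scale. *Mtor*, *Larp1* and the S6 kinase gene *Rps6kb1* had log2 differences of −0.25, −0.12 and −0.01 and were not called.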

How the data were processed

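Total RNA of 12 cultured samples, 3 in each of the 4 lines, was sequenced in paired-end reads of 101 bases. The authors deposited 1 table of values for 30705 genes, taken here as RPKM because the study's legends name that unit while its methods speak of normalised counts. The values summed to 878504 to 903881 per library, so another scaling with a near-fixed total is possible. The submitters' processing notes name the mouse build mm10. The aligner and counter are not given in the sources used here, and reads shared by near-identical genes may be split.

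The test took the 11282 genes whose mean reached 1 RPKM, on the scale of log2(RPKM + 1), which understates the change of low genes. limma (version 3.58.1, R 4.3.3) was fitted over all 4 groups, with Benjamini-Hochberg adjustment over all tested genes and a threshold of 0.05. A Tukey test per gene on untransformed RPKM, adjusted the same way, served as the second tool. Transcript lengths, coding lengths and GC content came from GENCODE M21 and covered all 80 tested members, and sequences came from RefSeq. Trends with whole transcript length and GC were removed by loess with a span of 0.3. Ratios were tested by exact permutation. Same-numbered samples were checked for shared deviations from their group means over all tested genes. Between *ptgs2*-KO and *ptges*-KO all 3 same-numbered pairs correlated above 0.1 (r of 0.11 to 0.57), and no such pair with a scramble sample did, so the numbers were taken to pair the former and not the latter. This rests on the data and not on the labels, and *ptgs2*-KO replicate 2 correlated more with *ptges*-KO replicate 3 (0.32) than with its own number. Over all groups, 5 of 18 same-numbered pairs correlated above 0.1. The mean r was 0.012 for same numbers and −0.0046 for other numbers. Between *ptgs1*-KO and each other knockout, 1 of 3 same-numbered pairs lay above 0.1. The scripts were tested on simulated data.

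Named genes were the members with the largest called rises and falls, those deviating most from the other members, the stalk proteins, paralogs and the extremes of level and range, besides listed genes of translation and ribosome production. *Rpl5*, *Rpl6*, *Rpl8*, *Rpl9*, *Rpl14*, *Rpl28*, *Rpl29*, *Rpl35a*, *Rpl41*, *Rps4x*, *Rps6*, *Rps26* and *Rpl34-ps1* were named after their values were seen. The members and lists were chosen with earlier results of these data known. The alternatives tried covered the filter, pseudocount, scaling, samples in the fit, replicate block, length and GC trends, the test and the omission of single libraries. Some items that the rule for named genes takes are not reported here.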

Additional observations from a re-analysis of the deposited data

Results flagged for a closer look

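*Rps3a* moved in opposite directions in 2 knockouts. All 3 *ptgs1*-KO samples (1229 to 1527 RPKM) lay below and all 3 *ptges*-KO samples (2086 to 2878 RPKM) above the scramble samples (1571 to 1867 RPKM). The log2 difference from scramble was 0.88 higher with *ptges* than with *ptgs1* targeted, and this difference was not tested itself. The *ptgs1*-KO difference alone was not called by limma (adjusted p = 0.285).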

How the results depend on the processing

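Counts below are of the 80 members, and causes not shown by an alternative's construction were not tested. The share of all genes called also changed with the setting. For genes higher in *ptges*-KO against scramble cells it was 11.9% in the main fit and 19.0% with length and GC trends removed. A changed count below therefore need not be particular to the members. With no filter on low values, 8 were higher in *ptges*-KO against scramble, 5 against *ptgs2*-KO cells, 10 differed over the 4 groups and 0 were lower in *ptgs1*-KO cells. Quantile normalization gave 9 higher and 1 lower, 4 higher and 1 lower, and 10 in the first 3 of these. Centring on the members' median gave 0 higher and 1 lower, 0 higher and 3 lower with a median difference of −0.040, and 4, and 0 lower in *ptgs1*-KO cells. Tukey's test gave 7, 4, 11 and 0. Fitting only the groups compared gave 4 higher against *ptgs2*-KO and 2 lower in *ptgs1*-KO cells. Removing length and GC trends gave 45 higher against scramble, 38 higher and 1 lower against *ptgs2*-KO, 49 over the groups, 3 higher in *ptgs1*-KO and 11 higher and 1 lower in *ptgs2*-KO cells, and the 1 lower member in *ptgs1*-KO cells was then *Rps27l* in place of *Rpl34*. With both low libraries left out, an alternative chosen after the data were seen, the counts were 54, 31, 60 over the groups and 2 lower in *ptgs1*-KO cells.

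Among the comparisons made, the replicate numbers were taken to pair only the *ptgs2*-KO and *ptges*-KO samples. That pairing was inferred from the same data and is not in the labels. There, a replicate block on those samples alone gave 74 higher members. A replicate block over all samples gave 21 higher members in *ptges*-KO against scramble and 19 against *ptgs2*-KO cells, and 1 lower in *ptgs2*-KO cells. The replicate block with length and GC trends removed gave 50 higher and 1 lower, 44 higher and 1 lower, 54 over the groups, 2 higher in *ptgs1*-KO and 11 higher and 1 lower in *ptgs2*-KO cells.

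Leaving out 1 library at a time gave 7 to 26 higher members against scramble, 4 to 60 against *ptgs2*-KO, 10 to 40 over the groups and 0 to 1 lower in *ptgs1*-KO cells. It gave 0 called members for *ptgs2*-KO against scramble, and over these omissions the called members changed direction in no comparison. Centring on the members' median, as given above, left only lower calls in both *ptges*-KO comparisons. With 3 samples a group and relative values, a change of the whole RNA content cannot be seen.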

Other observations

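Mitochondrial ribosomal protein genes, which serve the separate ribosomes of that organelle, were higher in 4 and lower in 1 of 76 between *ptges*-KO and scramble cells, beside 11.9% and 14.4% of all genes, with a median log2 difference of −0.01. *Mrpl9* had 54.7, 50.6 and 49.0 RPKM in scramble and 70.2, 68.2 and 65.9 RPKM in *ptges*-KO samples, which did not overlap (log2 difference 0.40, limma adjusted p = 0.000928). Joint levels of this list were −0.0043 to 0.17 in scramble and −0.11 to 0.15 in *ptges*-KO samples and thus overlapped.

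Nuclear genes of oxidative phosphorylation, many of them short like the ribosomal protein genes, were higher in 1 and lower in 4 of 72 in the same comparison, again beside 11.9% and 14.4% of all genes, with a median log2 difference of −0.14. *Ndufb4*, a subunit of complex I, had 179, 147 and 153 RPKM in scramble and 53.1, 107 and 107 RPKM in *ptges*-KO samples (log2 difference −0.90, adjusted p = 0.0374). The groups did not overlap, and *ptges*-KO replicate 1 was the lowest of its group here too. Of 5 expressed ribosomal protein pseudogenes 0 were called by limma in *ptges*-KO against scramble cells, with a median log2 difference of 0.06.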
